A study of Mus musculus with 12 samples.

Results

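The ribosomal protein genes encode the protein subunits of the cytosolic ribosome. The set was defined by symbol: every RefSeq protein-coding gene of the mouse build mm10 (GRCm38.p6) on chromosomes 1 to 19 whose symbol is Rpl or Rps, a number and at most one of the letters a, x or l. It holds 73 of 20665 protein-coding genes on these chromosomes, 44 of the large subunit (Rpl) and 29 of the small subunit (Rps), with 13 on chromosome 7. The rule uses symbols and chromosomes only. Chromatin was profiled by CUT&RUN, in which an antibody leads a nuclease to its target and the released DNA is sequenced. Fetal lungs of wild-type C57Bl6 mice were pooled at E17.5, their epithelial cells were taken with EpCAM microbeads, and each reaction held 100000 cells. All groups share this strain, age and selection and are labelled by antibody. They are H3K4me3 (3 libraries), NKX2-1 (3), PRDM16 (2, replicate 1 with a rabbit and replicate 2 with a sheep antibody) and PRDM3 (1). Their peak lists also differ in a letter in the peak names, in length and in confidence, as given below. The 3 IgG samples were not analysed here, so no background level stands beside the peaks. Nothing in the labels says that replicates came from separate pools of animals, so the spread between libraries may be technical.

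H3K4me3, trimethylation of lysine 4 of histone H3, marks the promoters of active genes. NKX2-1 is the homeodomain factor that specifies the lung epithelium. PRDM16 and PRDM3 (the product of Mecom) are related zinc-finger proteins of the PR-domain family. Ribosomal protein genes are transcribed at high rates in nearly all cells and their subunits are needed in equal amounts. Their promoters often lack a TATA box, and their transcripts typically begin with a run of pyrimidines, the 5′ terminal oligopyrimidine tract, through which translation responds to the TOR kinase.

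The pyrimidine run and a motif of ETS-family factors were among the motifs with a higher share in ribosomal protein promoters than in other promoters. RefSeq promoter windows, from 250 bases before to 50 after an annotated start, were at hand for 54 of the 73 genes (66 windows). The letters CTTTCC stood on the gene's own strand within 50 bases of the start in 31.8% of these windows, against 4.06% of 11787 windows of other genes with H3K4me3 and 4.39% of all 20085 windows. The shorter run CTTTC, which every CTTTCC contains, was there in 48.5% against 9.71% and 11.4%. Selected promoters are shown to make these features visible, from 100 bases before to 20 bases after the outermost annotated start, read 5′ to 3′ on the gene's strand, from RefSeq in GRCm38.p6. Capitals mark the pyrimidine run CTTTCC, the ETS core CCGGAAG and the YY1 core AAGATGG, on either strand. Rpl28, Rpl13a, Rpl15, Rps10 and Rps27 are shown for a pyrimidine run at the start. Rps21 is shown for the highest mean rank of peak strength over the factor libraries. Rps6 is shown as the substrate of the S6 kinases, and Rpl6 for its nearly empty promoter in the factor libraries.
Rpl28 (chr7:4792865-4792984, plus strand): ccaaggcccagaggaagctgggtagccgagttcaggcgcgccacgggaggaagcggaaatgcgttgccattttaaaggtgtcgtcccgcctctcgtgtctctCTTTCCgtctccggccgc
Rpl13a (chr7:45128726-45128845, minus strand): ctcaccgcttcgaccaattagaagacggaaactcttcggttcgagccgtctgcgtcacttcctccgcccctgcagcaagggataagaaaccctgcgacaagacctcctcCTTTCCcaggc
Rpl15 (chr14:18270967-18271086, minus strand): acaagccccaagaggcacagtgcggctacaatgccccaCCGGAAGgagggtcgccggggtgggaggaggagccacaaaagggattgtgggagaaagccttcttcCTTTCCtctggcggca
Rps10 (chr17:27635225-27635344, minus strand): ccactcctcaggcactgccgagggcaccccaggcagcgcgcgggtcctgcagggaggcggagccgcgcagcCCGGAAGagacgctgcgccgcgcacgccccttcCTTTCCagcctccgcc
Rps27 (chr3:90213629-90213748, minus strand): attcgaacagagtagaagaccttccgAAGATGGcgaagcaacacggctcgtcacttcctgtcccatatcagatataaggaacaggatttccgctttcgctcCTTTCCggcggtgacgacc
Rps21 (chr2:180257279-180257398, plus strand): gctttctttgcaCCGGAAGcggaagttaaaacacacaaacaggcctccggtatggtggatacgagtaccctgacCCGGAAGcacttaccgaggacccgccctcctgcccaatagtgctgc
Rps6 (chr4:86857348-86857467, minus strand): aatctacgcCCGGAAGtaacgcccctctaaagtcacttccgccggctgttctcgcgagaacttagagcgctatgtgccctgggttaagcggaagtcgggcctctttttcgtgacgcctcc
Rpl6 (chr5:121204401-121204520, plus strand): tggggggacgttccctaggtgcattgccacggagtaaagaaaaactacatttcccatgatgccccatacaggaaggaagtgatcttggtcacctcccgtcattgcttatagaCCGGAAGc

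CTTTCC began at position 3 in Rpl28, 10 in Rpl13a, 5 in Rpl15, 5 in Rps10 and 2 in Rps27, counted from 1 at the annotated start. Rps21 held CCGGAAG at positions -88 and -26, and Rps6 held it at -91. Over the whole 300-base windows on both strands, CCGGAAG was found in 34.8% of the ribosomal protein windows, 17.6% of those of other genes with H3K4me3 and 11.9% of all windows. AAGATGG was found in 16.7%, 6.68% and 6.29%. The GC-rich box GGGCGG was in 54.5%, against 64.9% at other genes with H3K4me3 and 47% of all windows, and the median GC content was 57.3% against 61.7%. TATAAA occurred in 6.06%, 6.74% and 12.7%. The short forms of the site bound by NKX2-1 were near the background: CAAGTG in 7.58%, 10.9% and 12.9%, and CTCAAG in 16.7%, 14% and 15%. AGATAA, the core bound by the amino-terminal zinc fingers of PRDM3, was in 4.55%, 5.77% and 9.57%. CACGTG, the E-box bound by MYC, was in 12.1%, 9.84% and 7.89%, and the palindromic site of NRF1 in 3.03%, 2.05% and 1.34%. Windows of a gene with several starts overlap, and these shares are descriptions of letters, not of bound sites.

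**Figure D1:**
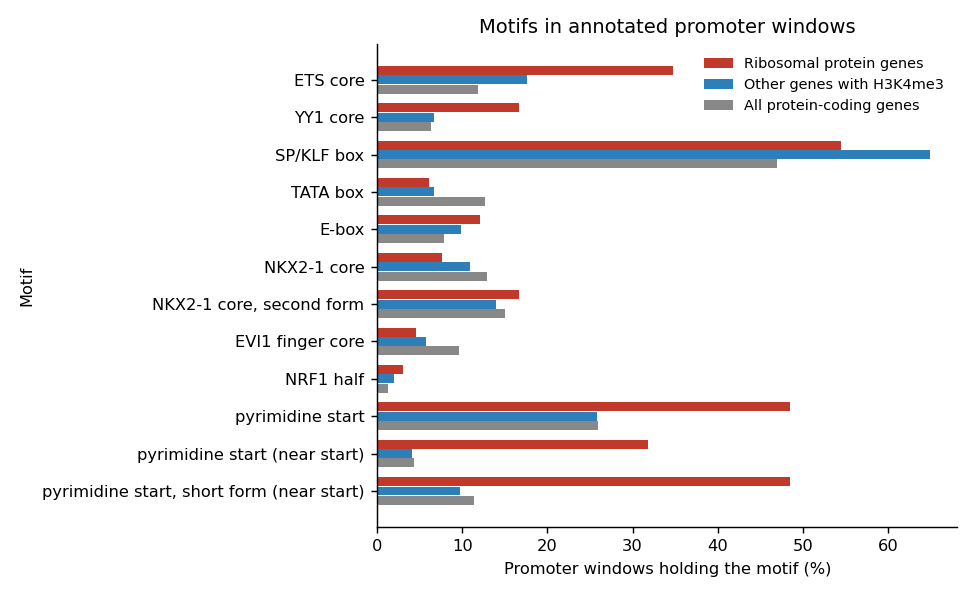
Percentage of annotated promoter windows holding each motif (horizontal axis) for ribosomal protein genes (66 windows), other genes with H3K4me3 (11787) and all protein-coding genes (20085); "near start" means the gene's strand within 50 bases of the start. The pyrimidine run near the start (31.8% against 4.06%) and the ETS core (34.8% against 17.6%) are among the motifs with a higher share than at other genes with H3K4me3.

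Factor occupancy of ribosomal protein genes with and without the ETS core was compared by counts alone, with no test. Of the 22 genes whose promoter held CCGGAAG, 17 had NKX2-1, 19 had PRDM16 and 16 had PRDM3. Of the 32 without it, 25, 25 and 24 had them. Among other genes with H3K4me3 the shares were 86.3%, 84.6% and 80.5% with the motif and 82.9%, 85% and 80.6% without. Of the 28 genes with CTTTCC anywhere in the window, 20 had NKX2-1 (71.4%), 22 PRDM16 (78.6%), 19 PRDM3 (67.9%) and 16 all 3 (57.1%). Of the 26 without, 22 (84.6%), 22 (84.6%), 21 (80.8%) and 14 (53.8%) did. Among other genes with H3K4me3 these shares were 83.6%, 84%, 80.2% and 65.3% with CTTTCC and 83.6%, 85.3%, 80.7% and 66.9% without. For GGGCGG, NKX2-1 stood at 26 of 30 genes with it (86.7%) and 16 of 24 without (66.7%), against 85.5% and 78.9% of other genes with H3K4me3. For TATAAA it stood at 0 of 4 and 42 of 50 genes, against 82.4% and 83.7%.

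Nearly all ribosomal protein genes carried H3K4me3, and most carried each of the 3 factors at a gene end. A gene was counted as occupied when a peak overlapped the 1 kb on either side of one of its annotated ends, in at least 2 of 3 libraries for H3K4me3 and NKX2-1, in both for PRDM16 and in the 1 library for PRDM3. H3K4me3 was called at 70 of 73 genes (95.9%, Wilson 95% interval 88.6 to 98.6), where 57.2% of all protein-coding genes were called. NKX2-1 was called at 59 (80.8%, interval 70.3 to 88.2), where 50.0% of all genes were called. PRDM16 was called at 61 (83.6%, interval 73.4 to 90.3; 53.5% of all genes), and PRDM3 at 56 (76.7%, interval 65.8 to 84.9; 49.7% of all genes). All 3 factors were called together at 43 (58.9%, interval 47.4 to 69.5; 38.2% of all genes). The intervals cover counting error over genes only.

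Set beside other genes with H3K4me3 rather than all genes, factor occupancy was near the background with all deposited peaks within 1 kb of either gene end. Of all 11822 genes with H3K4me3, 83.0% had NKX2-1, 84.7% had PRDM16, 80.1% had PRDM3 and 65.6% had all 3. Of the 70 ribosomal protein genes with H3K4me3, 59 (84.3%), 60 (85.7%), 55 (78.6%) and 43 (61.4%) did. Other windows gave other gaps, here for all 3 factors over ribosomal protein genes with or without H3K4me3. With 500 bases the shares were 47.9% against 59.9% of other marked genes, and with 2 kb 69.9% against 70.9%. At the 5′ end of the 54 genes of known strand they were 51.9% against 64.4%. Among confident peaks only, the share of the 73 genes was below that of other marked genes: all 3 factors stood at 24.7% against 36.5% at q under 0.05, at 16.4% against 30.3% with the 20000 strongest peaks of each list, and at 0% against 5.04% with a −log10 q of 5 or more. Peaks in all 6 factor libraries stood at 30 ribosomal protein genes (41.1%), against 28.0% of all genes and 48.6% of those with H3K4me3. The same 30 had peaks in all 9 libraries, against 27.7% of all genes.

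Of the 44 large-subunit genes, 41 had H3K4me3, 35 NKX2-1, 38 PRDM16, 34 PRDM3 and 28 all 3 factors. Of the 29 small-subunit genes, 29, 24, 23, 22 and 15 did. For all 3 factors the share was 51.7% (interval 34.4 to 68.6) in the small and 63.6% (interval 48.9 to 76.2) in the large subunit. In single libraries, NKX2-1 replicate 2 had peaks at 14 of 29 small-subunit genes (48.3%) and 31 of 44 large-subunit genes (70.5%), and no difference between subunits was tested.

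Library by library, H3K4me3 peaks stood at 70, 69 and 70 of the 73 genes in replicates 1 to 3 (95.9%, 94.5% and 95.9%, against 60.2%, 57.3% and 55.7% of all genes). NKX2-1 peaks stood at 67, 45 and 55 (91.8%, 61.6% and 75.3%, against 59.3%, 42.1% and 49.0%). PRDM16 peaks stood at 71 and 61 (97.3% and 83.6%, against 65.0% and 57.9%). NKX2-1 thus varied most between libraries, and its replicate 2 was the lowest of all 9. The H3K4me3 share averaged 95.4% ± 0.791 (SD, n = 3) and the NKX2-1 share 76.3% ± 15.1 (SD, n = 3). The difference of 19.2 percentage points gave p = 0.1 in an exact two-sided permutation test over libraries, the smallest p that 3 against 3 allows. Other genes with H3K4me3 differed by 20.1 points, but they were chosen for the mark, which largely sets their H3K4me3 share (98.8%). Over all protein-coding genes the shares averaged 57.7% for H3K4me3 and 50.1% for NKX2-1. NKX2-1 stood 9.59 points below the 3 PRDM libraries (85.8% ± 10.5, SD, n = 3; exact permutation p = 0.4, difference as coded -9.59). Those 3 hold 2 proteins, PRDM16 with 2 antibodies and PRDM3, so their SD mixes targets and antibodies with the spread of replicates. List length differs too: NKX2-1 has 52685, 62926 and 79417 peaks, PRDM16 111440 and 79037, and PRDM3 52248. Its part in the shares was not tested.

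Peak names carry a letter C or H whose meaning is not given, and all PRDM lists and replicate 1 of NKX2-1 and H3K4me3 carry C. Within C the H3K4me3 share exceeded that of NKX2-1 by 4.11 points, and within H by 26.7. NKX2-1 minus PRDM was 5.94 within C, opposite in sign to the pooled value, and H holds no PRDM library. The 3 NKX2-1 lists also differ in confidence: 76.4%, 10.8% and 12.9% of their peaks had q under 0.05 in replicates 1 to 3. The part of these differences in the shares was not tested.

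**Figure D2:**
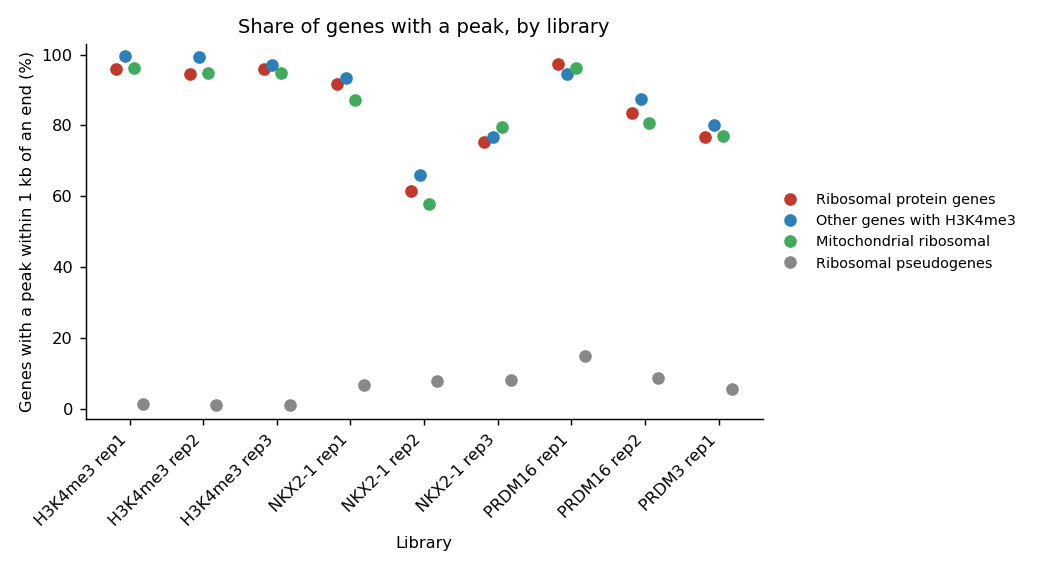
Share of genes with a peak within 1 kb of an annotated end (vertical axis, %) in each of the 9 libraries (horizontal axis), 1 point per gene group. Ribosomal protein genes lie between 61.6% and 97.3%, near other genes with H3K4me3 and mitochondrial ribosomal protein genes, and pseudogene copies lie lowest in each library.

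The annotated pseudogene copies of ribosomal protein genes were almost unmarked. Of 268 on these chromosomes, 3 had H3K4me3 (1.12%), 7 NKX2-1, 14 PRDM16, 15 PRDM3 and 2 all 3 factors. Of the 3 with H3K4me3, Rpl35a-ps7 lies 157 bases from an end of the coding gene Zfp786, and Rpl21-ps3 and Rpl30-ps3 lie 1006 and 2111 bases from Mia2 and Fnbp4. Reads from near-identical copies can be placed at either locus, and the authors' handling of such reads is not stated.

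In rank of peak strength, the H3K4me3 medians stood above those of other marked genes and the PRDM3 median stood below. Fold enrichment is the authors' ratio of signal to background for each peak and its scale differs between libraries, so each gene's strongest peak was ranked within its own list, from 0 to 100, with no peak counted as 0. The median ribosomal protein gene ranked at 78.0, 80.0 and 80.6 in the 3 H3K4me3 libraries, against 69.7, 63.7 and 61.3 for other genes with H3K4me3. In those libraries 45, 55 and 57 of 73 lay above the median of the other genes. In NKX2-1 the medians were 79.0, 62.9 and 86.1 against 80.8, 65.7 and 84.9, with 28, 32 and 39 genes above. In PRDM16 they were 86.0 and 71.6 against 88.8 and 75.3, with 33 and 31 above. In PRDM3 the median was 44.4 against 64.9, with 24 above, and it was 51 over the 70 ribosomal protein genes with H3K4me3. The NKX2-1 and PRDM16 medians thus lay within 4 points of those of other marked genes.

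By subunit the PRDM3 median was 37.9 for large-subunit and 57.5 for small-subunit genes, and the 11 ribosome components outside the symbol rule stood at 61.6. Proteasome genes had a median of 29.0, mitochondrial ribosomal protein genes 58.5, respiratory chain genes 64.1, ribosome biogenesis genes 64.9 and translation factors 67.7. Keeping peaks with q under 0.05 left PRDM3 at 32 of 73 ribosomal protein genes (43.8%), against 60.9% of other genes with H3K4me3. NKX2-1 and PRDM16 under that limit stood at 53.4% and 71.2%, against 53.5% and 71.5%. Under the stricter limits the other factors were lower too: with the 20000 strongest peaks NKX2-1 stood at 56.2% against 59.8%, PRDM16 at 37% against 46.8% and PRDM3 at 38.4% against 56%, and with a −log10 q of 5 or more the shares were 6.85% against 11.4%, 27.4% against 36.6% and 12.3% against 20.6%. PRDM3 has 1 library, so this has no replicate check.

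**Figure D3:**
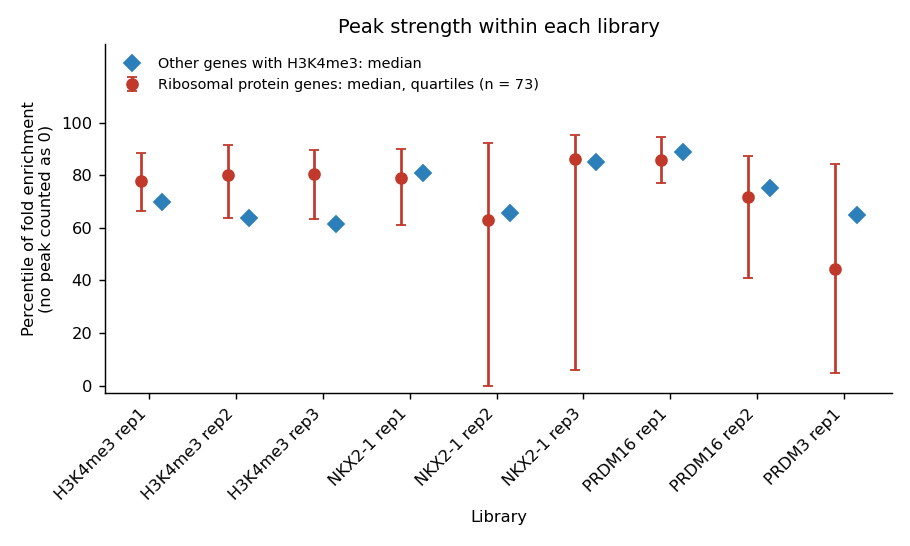
Percentile of fold enrichment within each library's own list (vertical axis) for the strongest peak at a gene end; red points and bars are the median and quartiles of the 73 ribosomal protein genes, blue diamonds the median of other genes with H3K4me3. Red lies above blue in all 3 H3K4me3 libraries and below it in PRDM3 (44.4 against 64.9). Red includes Rpl10l, Rpl32l and Rpl39l, which have no H3K4me3, and over the 70 genes with the mark the PRDM3 median is 51.

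The median H3K4me3 summit lay further into the gene than at other marked genes in all 3 libraries. Among ribosomal protein genes of known strand, the H3K4me3 summit lay a median 331.5, 290 and 312 bases downstream of the nearest annotated start in replicates 1 to 3, against 196, 192 and 190 bases elsewhere. It was downstream at 43 of 50, 45 of 48 and 45 of 49 genes with a peak at the 5′ end (86%, 93.8% and 91.8%), against 75.5%, 79.1% and 78.8% of other marked genes. Factor summits lay on both sides of the start: NKX2-1 medians were 86, 92 and 81 bases, those of PRDM16 were -77 and -89, and that of PRDM3 was -33. Regardless of side, NKX2-1 summits had a median distance of 215, 298 and 168 bases, PRDM16 summits 185 and 182, PRDM3 summits 322 and H3K4me3 summits 368.5, 297.5 and 324, so PRDM3 and NKX2-1 replicate 2 summits lay about as far from the start as those of the mark. H3K4me3 peaks had median widths of 2311.5, 1929 and 1799 bases against 1958, 1715 and 1596, while factor peaks had lower medians than at other marked genes in all 6 libraries: NKX2-1 959, 376 and 492 against 1140.5, 464.5 and 565, PRDM16 1017 and 619 against 1025 and 761.5, and PRDM3 536.5 against 648.5 bases. The median ribosomal protein gene is 3175 bases long and the median other marked gene 23400, so windows at the 2 ends of a short gene nearly meet.

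**Figure D4:**
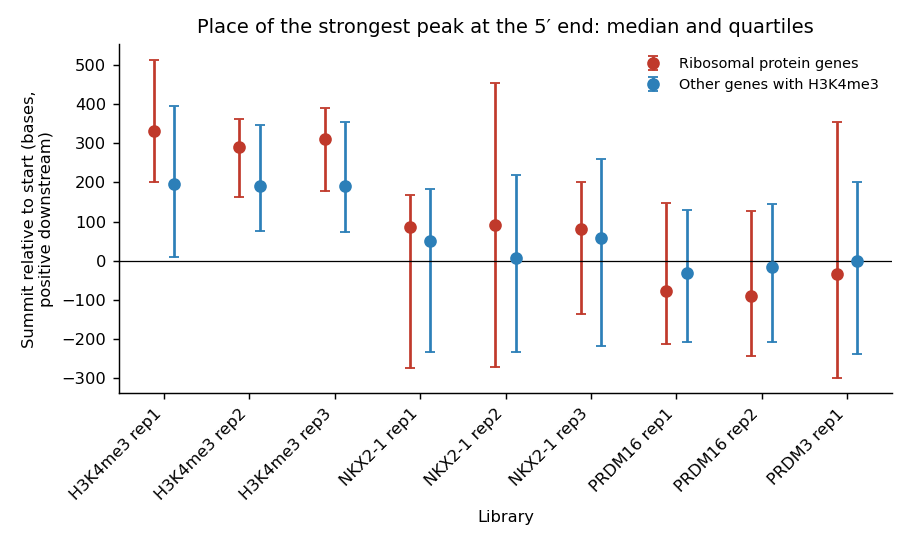
Distance of the peak summit from the nearest annotated start (vertical axis, bases, positive downstream) for genes of known strand with a peak at the 5′ end; points and bars are medians and quartiles. H3K4me3 summits at ribosomal protein genes (medians 331.5, 290 and 312) lie downstream of those at other genes with H3K4me3, and factor summits spread to both sides of 0.

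Genes were ranked by their mean percentile over the 6 factor libraries, which favours genes with a peak in all 6. Rps21, a small protein of the 40S subunit, was first, with a mean percentile of 95.8 ± 3.02 (SD over 6 libraries). Its fold enrichment was 11.5, 4.25 and 4.00 in NKX2-1, 13.6 and 10.8 in PRDM16 and 6.79 in PRDM3. Its H3K4me3 ranked high in 1 library and low in the others: 32.9, 22.0 and 14.4, at percentiles 96.8, 38.9 and 26.4. An end of Cables2 lies 95 bases from an end of Rps21, so the peaks cannot be given to one gene alone. Rps27a, which is made as a fusion with ubiquitin, had fold enrichments of 10.7, 5.70 and 7.19 in NKX2-1, 12.9 and 3.73 in PRDM16 and 6.11 in PRDM3, and lies 90 bases from Clhc1. Rps9, which has no other coding gene's end in its window, had 9.09, 4.88 and 3.54 in NKX2-1, 14.7 and 5.44 in PRDM16 and 4.86 in PRDM3. Rps19, the subunit most often mutated in Diamond-Blackfan anaemia, had 7.60, 4.01 and 4.01, 11.5 and 8.89, and 4.04 in the same order. Its strongest NKX2-1 peak in replicate 1 had its summit 5258 bases downstream of the nearest start, at the 3′ end of the gene. Rps25 completed the small-subunit genes, at a mean percentile of 87.1 ± 8.29.

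In the large subunit Rpl15, Rpl34, Rpl32, Rpl36 and Rpl41 ranked highest, with means of 90.4 ± 4.6, 90.4 ± 9.20, 87.4 ± 15.7, 87.4 ± 15.0 and 87.3 ± 16.0. Rpl15, whose promoter is printed above with both CCGGAAG and CTTTCC, had fold enrichments of 8, 4.07 and 4.79 in NKX2-1, 5.90 and 7.41 in PRDM16 and 4.86 in PRDM3. Rpl34 had 5.80, 4.88 and 5.59, 10.1 and 7.66, and 4.50, without CCGGAAG or CTTTCC in the 120 bases around its start. Of these 5 genes, Rpl34 alone has no other coding gene's end within its windows. Ranks among the leading genes overlap within their spread over libraries.

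Rps6, whose phosphorylation by the S6 kinases is a common readout of TOR activity, had H3K4me3 at fold enrichments of 31.8, 65.8 and 41.5. Its NKX2-1 peaks were at 6.32, 2.91 and 5.66, PRDM16 at 5.43 and 5.13, and PRDM3 at 3.40, so all 9 libraries held a peak. Rpl38, known for its role in translation of Hox transcripts, also had a peak in all 9, with H3K4me3 at 18.1, 29.8 and 15.2 and a mean percentile of 48.0 ± 18.4 in the mark and 74.1 ± 13.1 over the factor libraries, whose lists are longer. Rpl5 and Rpl11, which bind MDM2 with the 5S RNA when ribosome assembly fails, had H3K4me3 in all 3 libraries and factor peaks in some. Rpl5 had H3K4me3 at 29.3, 77.2 and 50.1, NKX2-1 at 4.55 and 3.20 in replicates 1 and 3 with none in replicate 2, PRDM16 at 3.07 in replicate 1 only and PRDM3 at 2.43. Rpl11 had H3K4me3 at 37.1, 33.7 and 27.9 (percentiles 98.9, 55.7 and 53.2, so high in replicate 1 only), NKX2-1 at 5.76 in replicate 1 only, PRDM16 at 15.7 and 4.21, and PRDM3 at 3.16.

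**Figure D5:**
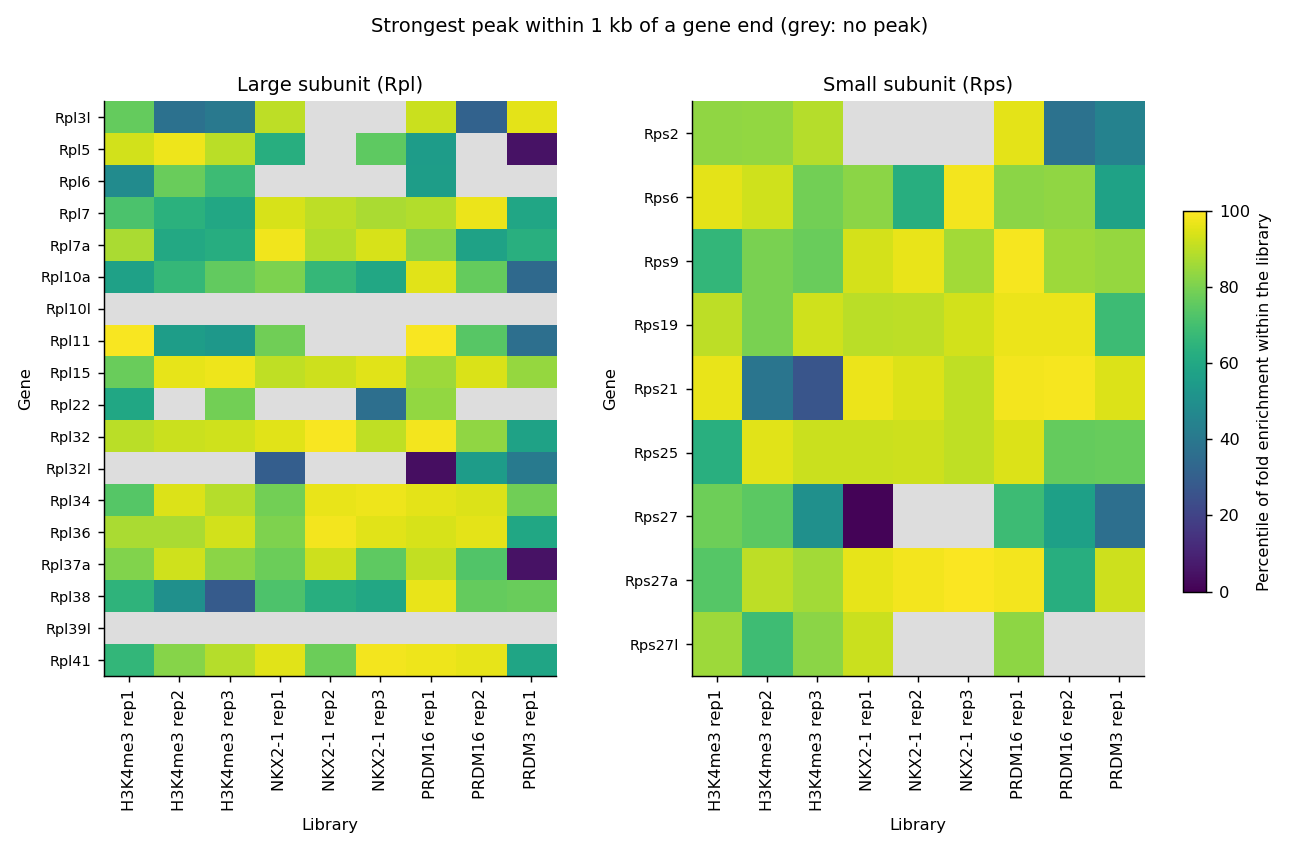
Percentile of fold enrichment within each library (colour) of the strongest peak within 1 kb of an end of each gene named by the rule (rows) in the 9 libraries (columns); grey means no peak. Rpl10l and Rpl39l are grey throughout, Rpl6 holds a peak in 1 of the 6 factor libraries, and Rps21, Rps9 and Rpl15 hold one in all 6.

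H3K4me3 was not called at Rpl10l, Rpl39l and Rpl32l. Rpl10l and Rpl39l, paralogs expressed mainly in male germ cells, had no peak in any of the 9 libraries. Rpl32l, 592 bases long, had no H3K4me3 peak and weak factor peaks at 3.36 in NKX2-1 replicate 1, 2.10 and 3.18 in PRDM16 and 3.27 in PRDM3. The NKX2-1 and PRDM16 summits lay 716 to 1229 bases past the start of Rpl32l. Rpl3l, the heart and skeletal muscle paralog of Rpl3, was called for H3K4me3 (21.7, 21.2 and 21.7), but those summits lie 4032, 4032 and 4046 bases from its nearest annotated start, in the window of its other end, 450 bases from an end of Msrb1. Around its annotated starts Rpl3l had no peak in any library. Rpl10l, Rpl3l and Rpl32l are printed for comparison with the promoters above, and Rpl39l is not.
Rpl10l (chr12:66284382-66284501, minus strand): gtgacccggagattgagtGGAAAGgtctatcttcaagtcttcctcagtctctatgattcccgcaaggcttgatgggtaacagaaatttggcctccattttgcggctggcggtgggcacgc
Rpl3l (chr17:24727726-24727845, plus strand): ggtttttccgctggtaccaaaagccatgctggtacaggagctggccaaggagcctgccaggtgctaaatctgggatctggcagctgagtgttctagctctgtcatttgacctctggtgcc
Rpl32l (chr10:20208339-20208458, plus strand): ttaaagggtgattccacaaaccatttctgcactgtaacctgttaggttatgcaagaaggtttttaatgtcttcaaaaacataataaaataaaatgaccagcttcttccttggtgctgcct

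Capitals in Rpl10l mark the reverse complement of CTTTCC, at position -82, and none of the 3 holds CCGGAAG in these bases. Rps4l, another restricted paralog, is not a protein-coding gene of the table used and was not counted.

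Of the 70 genes with H3K4me3, 3 had none of the factors called: Rpl6, Rpl22 and Rps27l. Rpl6 had H3K4me3 at 13.4, 48.7 and 35.7, and of the factor libraries only PRDM16 replicate 1 held a peak, at 3.15. For Rpl22 and Rps27l the absence depended on which annotated start was used. Rpl22, a subunit with a paralog outside the set (Rpl22l1), has an outermost annotated start upstream of its other start, and its window held H3K4me3 in replicates 1 and 3 only (16.6 and 41.3). Around any annotated start, Rpl22 had peaks in all 9 libraries, with H3K4me3 at 16.6, 69.3 and 41.3, NKX2-1 at 4.07, 3.26 and 4.79, PRDM16 at 5.61 and 7.58, and PRDM3 at 3.12. Rps27l, a paralog of Rps27 induced by p53, had around any start H3K4me3 at 24.9, 42.6 and 44.0, NKX2-1 at 8.45 and 5.59 in replicates 1 and 3, PRDM16 at 5.53 and 4.27 and PRDM3 at 5.27. Rps27 itself had NKX2-1 in replicate 1 only (2.37), PRDM16 at 3.77 and 3.36 and PRDM3 at 3.16. Rps2 had no NKX2-1 peak in any replicate, PRDM16 at 9.91 and 2.96 and PRDM3 at 3.35, with H3K4me3 at 24.2, 54.7 and 49.5, and ends of Rnf151 and Ndufb10 lie in its windows.

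Each other combination was called at fewer genes than all 3 factors together. NKX2-1 with PRDM16 was called at 9 of the 73 genes (12.3%), PRDM16 with PRDM3 at 8 (11%) and NKX2-1 with PRDM3 at 5 (6.85%). NKX2-1 alone was called at 2 (2.74%), PRDM16 alone at 1 (1.37%, Rps28), PRDM3 alone at 0 (0%) and no factor at 5 (6.85%). These counts include genes without H3K4me3: Rpl32l has PRDM16 with PRDM3, and Rpl10l and Rpl39l have no factor. Among other genes with H3K4me3 the shares of these classes were 8.53%, 6.72%, 5.48%, 3.32%, 3.76%, 2.25% and 4.3%.

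H3K4me3 domains were widest at Rpl7 (4096 ± 58.5 bases, SD over 3 libraries) and Rpl7a (3201 ± 417), and narrowest at Rpl3l (1111 ± 123) and Rpl6 (1268 ± 259). The Rpl7a windows also hold ends of Med22 and Surf1, 43 and 66 bases away. No other coding gene's end lies in the Rpl7 windows. Its H3K4me3 summits in replicates 2 and 3 lie outside them, 1110 and 1127 bases from its nearest end. Whether the Rpl7 domain belongs to that gene alone was not tested. In all, 26 of the 73 genes share a window with an end of another protein-coding gene, and among the 47 others H3K4me3 was called at 93.6%, NKX2-1 at 78.7%, PRDM16 at 78.7%, PRDM3 at 68.1% and all 3 factors at 48.9%. Genes outside the set were not filtered in this way, so no background share stands beside these values.

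Distal regions shared by the 3 factors stood near few ribosomal protein genes. A shared distal region was a PRDM3 peak beyond 1 kb of any protein-coding gene end that overlapped peaks of at least 2 NKX2-1 and both PRDM16 libraries and none of H3K4me3. Within 50 kb, 4 of 73 ribosomal protein genes had one (5.48%), against 19.1% of other genes with H3K4me3 and 8.97% of mitochondrial ribosomal protein genes. Measured from the gene midpoint, so that gene length does not set the span, the shares were 5.48% and 13.8%. These 4 genes were Rpl12, Rpl14, Rpl31 (2 regions) and Rps28. The strongest, at chr1:39392532-39392919, lies 20785 bases from the nearest end of Rpl31 with a PRDM3 fold enrichment of 5.43, outside that gene. In single libraries, also from the midpoint, the share of genes with any distal peak differed in direction. For ribosomal protein genes it was 86.3%, 79.5% and 91.8% in NKX2-1, 98.6% and 86.3% in PRDM16 and 79.5% in PRDM3. For other marked genes it was 77.9%, 87.4% and 91.4%, 96.4% and 87.6%, and 77.4%. Median counts were the same in both sets: 0 shared regions, and 2 distal peaks in each NKX2-1 library, 5 and 3 in PRDM16 and 2 in PRDM3. Rpl37a and Rps21 had most, with 43 each over the 6 factor libraries, and Rpl10a had 40. The median number of other protein-coding genes within 50 kb was 4 against 3.

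Other housekeeping groups are given for comparison. Of 78 mitochondrial ribosomal protein genes, 74 had H3K4me3, 62 NKX2-1, 60 PRDM16, 60 PRDM3 and 41 all 3 factors. Of 95 respiratory chain genes the counts were 86, 78, 70, 72 and 56, of 67 translation factors 62, 55, 54, 53 and 42, of 25 ribosome biogenesis genes 24, 23, 21, 21 and 16, and of 38 proteasome genes 35, 34, 29, 22 and 20. Median H3K4me3 percentiles were lower than the 78.0, 80.0 and 80.6 of the ribosomal protein genes in each of these groups, for example 70.3, 69.8 and 63.9 for mitochondrial ribosomal protein genes and 73, 68.9 and 64.5 for translation factors.

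The selected cell type was checked by H3K4me3 at marker genes. All 8 lung epithelial markers had it (Ager, Cdh1, Cldn4, Epcam, Krt18, Krt8, Nkx2-1 and Sftpc), as did 2 of 6 mesenchymal (Col1a1 and Col1a2), 1 of 4 endothelial (Kdr) and 1 of 5 immune and blood markers. Ptprc and Pecam1 had none. H3K4me3 does not give the share of each cell type, and the part of other cells in the peaks at ribosomal protein genes was not tested.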

How the data were processed

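Peak lists of 9 libraries were analysed. Per the submitters' processing notes, Trimmomatic, Bowtie2, MACS2, HOMER and the build mm10 were used, with no versions or roles, and the use of IgG in calling is not stated. The authors deposited, for each peak of each list, a fold enrichment (a ratio of signal to background), a −log10 p and a −log10 q, a score and a summit offset. Lists reach down to different limits: the factor lists to −log10 p of about 2 and the H3K4me3 lists to about 5, per the file values. Depth in reads is unknown from such lists, and intervals are over genes.

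Genes came from the RefSeq table of GRCm38.p6, which names no strand or exons, so either gene end was used. Strand was taken from the RefSeq promoter table for 54 of 73 genes, and no coordinate was converted. A peak was linked when it overlapped the 1 kb window by at least 1 base, and chosen for a gene by highest fold enrichment. Motifs were searched as exact letters, and the promoters printed and the members named outside the rule were chosen after their values were seen. Libraries were compared by exact two-sided permutation tests, and lists are described by counts and medians with no test. Linking and the exact test were tested on simulated data. The members, the gene lists and the motifs were chosen with earlier results of these data known. Named genes are the restricted paralogs, genes without H3K4me3 or without factor peaks, the 5 highest and 3 lowest of each subunit by mean percentile over the 6 factor libraries, the 2 widest and 2 narrowest H3K4me3 domains, the 3 with most distal peaks, and Rps6, Rps19, Rpl5, Rpl11, Rpl22, Rpl38 and Rps27a. Alternatives varied the window, the peak limits, the gene set and the libraries. Values of a few genes are not reported here. Replicate lists share at most 12 identical peaks. Python 3.11.15, numpy 2.4.6, pandas 2.3.3, scipy 1.17.1 and matplotlib 3.10.9 were used.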

Additional observations from a re-analysis of the deposited data

Results flagged for a closer look

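The strength of the peaks at ribosomal protein genes, relative to other genes with H3K4me3, had opposite signs for the mark and for the PRDM proteins in every library. The median percentile of the ribosomal protein genes minus that of the other genes was 8.32, 16.3 and 19.2 in the 3 H3K4me3 libraries, and -2.76, -3.66 and -20.5 in PRDM16 replicates 1 and 2 and PRDM3. The ribosomal set here includes Rpl10l, Rpl32l and Rpl39l, which have no H3K4me3. Over the 70 with the mark the PRDM medians, in the same order, were 87, 72.5 and 51, against 88.8, 75.3 and 64.9. In H3K4me3 they were 79.1, 80.3 and 81.9, against 69.7, 63.7 and 61.3. The difference between the 2 kinds of library was not tested. The PRDM16 values are small beside the spread of the genes (quartiles 77.2 to 94.5 and 40.8 to 87.3), and only PRDM3, with 1 library, lies far below. The 3 NKX2-1 libraries had mixed signs (-1.82, -2.83 and 1.17).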

How the results depend on the processing

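The H3K4me3 count kept within 1.5 times of 70 in all alternatives but the one without the genes that share a window. The factor counts depended on the confidence of the peaks. With only peaks whose −log10 q reached 5, NKX2-1 stood at 5 of 73 genes, PRDM16 at 20, PRDM3 at 9 and all 3 factors at 0 (other genes with H3K4me3: 11.4%, 36.6%, 20.6% and 5.04%). In lists cut to their 20000 strongest peaks PRDM16 stood at 27, PRDM3 at 28 and all 3 at 12 (46.8%, 56% and 30.3% of other marked genes), and at q under 0.05 NKX2-1 stood at 39, PRDM3 at 32 and all 3 at 18 (53.5%, 60.9% and 36.5%). Requiring all 3 NKX2-1 libraries gave 39 genes, and leaving out each NKX2-1 library in turn gave 39 to 53, the lowest without replicate 1. For the 54 genes of known strand at the 5′ end, PRDM3 stood at 37 (68.5%) and all 3 at 28 (51.9%), against 79.3% and 64.4% of other marked genes. Without the 26 genes that share a window, H3K4me3 stood at 44 of 47, NKX2-1 at 37, PRDM16 at 37, PRDM3 at 32 and all 3 at 23, and the counts of genes above the median of other marked genes were 25, 36 and 36 (H3K4me3), 15, 17 and 23 (NKX2-1), 18 and 20 (PRDM16) and 15 (PRDM3). The other marked genes, whose median was used, were not filtered in this way, so these counts have no matching background. As shares of the genes left, H3K4me3 replicate 1 went from 61.6% to 53.2% above that median and replicates 2 and 3 from 75.3% and 78.1% to 76.6% and 76.6%, and PRDM16 replicate 1 from 45.2% to 38.3%. At the 5′ end of the 54 genes, 17 lay above in NKX2-1 replicate 1 and 20 and 20 in PRDM16, and around any annotated start (chosen after seeing the data) 16 in NKX2-1 replicate 1 and 21 in PRDM16 replicate 1.

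NKX2-1 minus PRDM changed sign with the 20000 strongest peaks (7.31 points, exact permutation p = 0.6) and within the C peak names (5.94), and its size ranged from -17.4 without NKX2-1 replicate 1 to -2.28 without replicate 2; the cause was not tested. H3K4me3 minus NKX2-1 kept its direction in all 19 alternatives, from 4.11 to 72.6 points. With the replicate number as a block it was 19.2 (exact sign-flip permutation p = 0.25, the smallest that 3 pairs allow). Shares of replicates 1 to 3 deviated from their means by 0.457, -0.913 and 0.457 points for H3K4me3 and by 15.5, -14.6 and -0.913 for NKX2-1, and the labels do not say that a number marks a shared sample.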

Other observations

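Ribosome components whose symbols fall outside the rule numbered 11. All 11 had H3K4me3 in 3 libraries, among them Rack1 (21.9, 76.0 and 64.6), a scaffold protein of the small subunit, and Rpsa (22.4, 58.4 and 37.8), and 9 had NKX2-1 (81.8%), 9 PRDM16 (81.8%) and 10 PRDM3 (90.9%), against 80.8%, 83.6% and 76.7% of the 73 genes. Fau, which encodes a ubiquitin-like protein fused to a ribosomal protein, had NKX2-1 in 1 library only, at 7.30. The 4 genes on the X chromosome, Rpl10, Rpl36a, Rpl39 and Rps4x, all had H3K4me3, with median percentiles of 50.5, 59.4 and 56.6 in replicates 1 to 3, against 69.7, 63.7 and 61.3 for other genes with H3K4me3. Rps4x had no NKX2-1 peak in any replicate, PRDM16 in replicate 1 only (3.43) and PRDM3 at 3.89. Rpl10, the widely expressed counterpart of Rpl10l, had all 3 factors, with NKX2-1 at 13.6, 5.16 and 2.83.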
